A study of Drosophila melanogaster with 3 samples.

Results

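The AMPK and TOR growth control genes are 10 protein-coding genes of Drosophila melanogaster, out of 13945 on the 6 chromosome arms used: alc, AMPKalpha, SNF4Agamma, Tor, raptor, Rheb, gig, Tsc1, S6k and Thor. The set was selected on a measured value, since the peak at alc was among the 25 strongest promoter peaks; its other members were listed by function. Binding of the CG2116 product was mapped by chromatin immunoprecipitation and sequencing (ChIP-seq) with anti-GFP antibody in a transgenic line whose CG2116 protein ends in eGFP. The material was whole embryos of both sexes, collected across 0 to 24 h of development. There was 1 group of 3 libraries, biological replicates 1, 2 and 4, with no second genotype, treatment or age. The line carries a tagged protein in mixed tissues and stages, so a site bound in a few cells and a weak site in all cells cannot be told apart.

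AMPK is a 3-subunit kinase that is switched on when cellular energy runs low. TOR is a kinase that, in the TORC1 complex with raptor, drives protein synthesis and growth when nutrients and insulin signals are plentiful. The small GTPase Rheb activates TORC1, the Tsc1 and gig (Tsc2) proteins hold Rheb inactive, and AMPK can restrain TORC1 through these inhibitors. S6k and Thor (the translation repressor 4E-BP) are classic substrates of TORC1.

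The 100 bases upstream of 5 gene starts are shown because they carry, or lack, TATCGATA or GCAACNCT, words that lie under some of the peaks described below. AMPKalpha (chrX:1375436-1375535, plus strand) and raptor (chrX:6090202-6090301, minus strand) are members with the DNA replication-related element TATCGATA. REPTOR (chr3R:24582865-24582964, minus strand) and eIF4E1 (chr3L:9402461-9402560, minus strand) are pathway genes with strong peaks and the letters GCAACNCT. gig (chr3L:20129081-20129180, plus strand) is the member with the weakest peak. Each line reads 5′ to 3′ along its gene and ends at the base before the transcription start site (TSS), from the RefSeq copy of the dm6 assembly. Capitals mark TATCGATA or GCAACNCT on either strand.
AMPKalpha: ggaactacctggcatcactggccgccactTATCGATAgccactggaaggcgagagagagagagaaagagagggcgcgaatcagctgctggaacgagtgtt
raptor: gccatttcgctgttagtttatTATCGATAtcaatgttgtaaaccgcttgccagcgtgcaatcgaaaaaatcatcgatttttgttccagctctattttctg
REPTOR: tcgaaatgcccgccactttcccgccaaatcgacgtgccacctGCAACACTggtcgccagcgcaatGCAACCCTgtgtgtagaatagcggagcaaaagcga
eIF4E1: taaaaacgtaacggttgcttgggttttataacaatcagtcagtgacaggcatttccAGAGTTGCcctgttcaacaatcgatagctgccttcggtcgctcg
gig: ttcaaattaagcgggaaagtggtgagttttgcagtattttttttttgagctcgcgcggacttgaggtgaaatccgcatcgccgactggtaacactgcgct

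At AMPKalpha the element began at -71 bp from the TSS and the pooled summit, the point of highest signal in a peak, lay at -64 bp. At raptor the element began at -79 bp and the summit lay at -71 bp, so both summits fell on or beside the element. REPTOR had GCAACNCT from -58 bp and again from -35 bp, with the summit between them at -46 bp. In eIF4E1 it lay on the other strand from -44 bp, with the summit at -24 bp. Among the same 100-base windows of all 13945 genes, 6.20% held TATCGATA and 3.15% held GCAACNCT. A match describes the letters and does not show which protein is bound.

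The authors deposited 30000 relaxed peaks for each replicate and for the pooled replicates. They also deposited a list of 7137 peaks kept by the irreproducible discovery rate (IDR) procedure, which is meant to select peaks that replicates share. Each IDR summit of the members had the same rank in the pooled list. An IDR entry does not by itself show a strong peak in every replicate. S6k was in that list with 1 of 3 replicates among the strongest 7137, and Thor was outside with 2. The pooled list is labelled as peaks and background put into that procedure, so its entries outside the IDR list can be background. The replicate lists have the same length. Each peak has a signal, the caller's own enrichment value on a scale that differs between lists, with medians of 18.8, 24.4 and 32.4 in replicates 1, 2 and 4. Relative signal below is therefore the strongest summit within 500 bp of any TSS of a gene, divided by the median of the whole list. Sequencing depth is unknown, since the peak lists give no read counts. The labels describe no separate collections beyond the replicate numbers, so the spread between replicates may be technical. No untagged line was used here, so peaks that the antibody gives without the tag could not be set apart.

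CG2116-eGFP peaks stood at the starts of most of these genes, with alc far above the rest. The IDR list held a summit near a start (within 500 bp) for 8 of the 10 genes, beside 42.6% of all protein-coding genes. Those without one were gig and Thor. All 10 had a pooled summit there, beside 60.4% of genes. All 10 also had one in replicate 1, replicate 2 and replicate 4, beside 59.2%, 58.5% and 60.3% of genes. All members had a summit within 100 bp of the pooled one in every replicate. Since the set was chosen with these values known, the counts are a description and were not tested.

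The AMPK subunit genes differed widely in peak strength. The scaffold gene alc (beta subunit, FBgn0260972, 2R, 9135375 to 9137933, minus strand) had a relative signal of 219, 188 and 214 in replicates 1, 2 and 4, a mean of 207 ± 16.65 (SD, n = 3). Its peak at 9137400 to 9138456 was 1057 bp wide, and its summit lay at -19 bp from the TSS in intergenic sequence. The replicate summits lay at -19, -20 and -19 bp, so all 3 libraries put the peak at the same base or the next. It ranked 19, 21 and 17 in the replicate lists and 17 in the pooled list. No other gene had a TSS within 500 bp of it.

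The catalytic subunit gene AMPKalpha (FBgn0023169, X, 1375536 to 1378896, plus strand) had a relative signal of 3.31, 1.62 and 3.60 in replicates 1, 2 and 4, a mean of 2.84 ± 1.07 (SD, n = 3). Replicate 2 stood below the others, where the summit ranked 9080, against 4527 in replicate 1 and 4019 in replicate 4. The pooled summit lay in the IDR peak at 1375222 to 1375721, and it was among the strongest 7137 summits in 2 of 3 replicates. Among the 5941 genes with an IDR summit it ranked 5144, near the weak end, whereas alc ranked 24. The 2 genes therefore encode subunits of 1 kinase and sit near opposite ends of the bound genes, though the set was chosen for the strong peak of alc.

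SNF4Agamma, which encodes the nucleotide-sensing gamma subunit (FBgn0264357, 3R, 21140739 to 21214269, plus strand), has 11 annotated starts. Its strongest summits had a relative signal of 5.74, 6.68 and 4.45 in replicates 1, 2 and 4, a mean of 5.62 ± 1.12 (SD, n = 3). The bound genes had a median of 5.50 and quartiles of 3.63 and 9.08, so the gene sits in the middle. The strongest pooled summit, in the peak at 21155945 to 21156444, lay at -167 bp from the start that is 15623 bp into the gene, inside an intron of the longer transcripts. Replicate 4 had its strongest summit at another start, 48472 bp away, with 4.15 at the start where replicates 1 and 2 peaked.

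Of the 11 starts of SNF4Agamma, 4 had an IDR summit and 9 had a pooled one. The first start had a pooled relative signal of 3.49 with the summit at -9 bp. The third start had 2 IDR summits, at -167 bp with 5.62 and at +35 bp with 3.80. The start 59676 bp into the gene had 2.76, and the one at 64189 bp had 4.54. Of the 45 pooled summits across the whole gene, 10 were in the IDR list, and these stood at several starts and at sites between them. No count was made for other genes of this length, and protein-coding genes had a median of 1 annotated start.

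**Figure D1:**
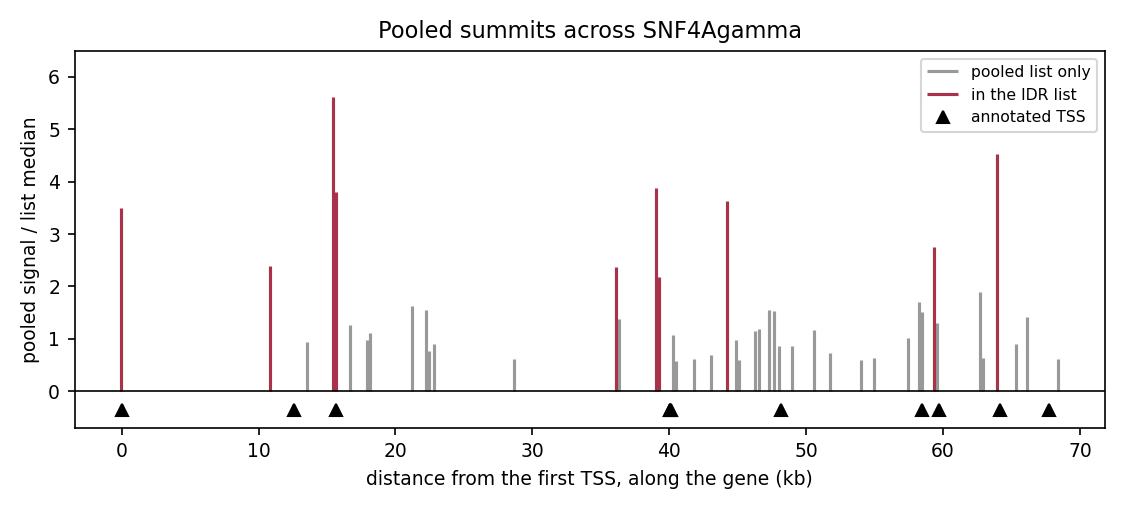
Pooled summits across SNF4Agamma by distance from the first TSS (kb); line height is the pooled signal divided by the list median. Red lines are the 10 summits in the IDR list, grey lines the other pooled summits and triangles the annotated starts; the tallest line, 5.62, stands just before the third start.

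The strongest summit of Tor stood close to the median of bound genes and that of raptor above it. The kinase gene Tor (annotated as mTor, FBgn0021796, 2L, 13004480 to 13013197, plus strand) had a relative signal of 4.96, 6.16 and 4.73 in replicates 1, 2 and 4, a mean of 5.29 ± 0.766 (SD, n = 3). Its summit at 13004222 lay at -258 bp from Tor and at -115 bp from Vha68-1, a vacuolar proton pump subunit gene on the other strand. The peak therefore lay nearer to the neighbour. A second IDR summit lay at -49 bp from Tor and was weaker, with a pooled relative signal of 3.72 against 6.05. The replicate summits there had 2.29, 4.18 and 2.86 in replicates 1, 2 and 4.

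The TORC1 scaffold gene raptor (FBgn0029840, X, 6082634 to 6090201, minus strand) had a relative signal of 9.09, 7.74 and 6.65 in replicates 1, 2 and 4, a mean of 7.83 ± 1.22 (SD, n = 3). Its peak was narrow, at 217 bp (6090172 to 6090388), with the summit at -71 bp. This stretch also lies in an intron of Mipp2 and of the antisense transcript gene asRNA:CR44959, which starts 323 bp into raptor. The replicate summits lay at -86, -68 and -84 bp, close together in all libraries, and raptor ranked 1847 of the bound genes.

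Rheb and its inhibitors differed in strength. Rheb (FBgn0041191, 3R, 5568921 to 5570491, plus strand) had a relative signal of 9.10, 8.47 and 8.16 in replicates 1, 2 and 4, a mean of 8.58 ± 0.483 (SD, n = 3). Its coefficient of variation, 5.63%, was the lowest of the 10 genes. The summit lay between head-to-head starts 306 bp apart, at -177 bp from Rheb and -129 bp from CG2931. The 222 bp peak (5568641 to 5568862) covered neither start, so it cannot be given to 1 of them.

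Tsc1 (FBgn0026317, 3R, 24130307 to 24134654, plus strand), the binding partner of Tsc2, had 3.29, 2.55 and 4.48 in replicates 1, 2 and 4, a mean relative signal of 3.44 ± 0.974 (SD, n = 3). Its start lies 52 bp from that of GatB on the other strand, and the summit lay between them, at -8 bp from Tsc1 and -44 bp from GatB. The Tsc2 gene gig (FBgn0005198, 3L, 20129181 to 20139010, plus strand) had 1.16, 0.810 and 1.64, a mean of 1.20 ± 0.415 (SD, n = 3). The ranges of Tsc1 and gig did not overlap, and gig in replicate 2 was below the median of that list. The gig summit was outside the strongest 7137 of every replicate.

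Both substrate genes lay low. The kinase gene S6k (FBgn0283472, 3L, 5797549 to 5810931, minus strand) had a relative signal of 1.58, 1.97 and 3.77 in replicates 1, 2 and 4, a mean of 2.44 ± 1.17 (SD, n = 3). It had the widest spread of the 10 genes, with a coefficient of variation of 47.9%, and replicate 4 stood above the others. Only in replicate 4 was the summit among the strongest 7137. The start lies 42 bp from that of kri on the other strand, and the summit at -10 bp lay between the starts.

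Thor (FBgn0261560, 2L, 3478434 to 3479612, plus strand) had 2.34, 1.27 and 2.65 in replicates 1, 2 and 4, a mean relative signal of 2.08 ± 0.727 (SD, n = 3). The strongest summit of replicate 2 lay at +420 bp, while those of replicates 1 and 4 lay at -11 and -42 bp. Replicate 2 also had a summit beside the pooled one, at 0.976. The summit beside the pooled one was among the strongest 7137 in 2 of 3 replicates, 1 and 4. The pooled signal of Thor, 138, was just under the weakest IDR peak, 144.1, and that of gig was 97.3. The members nearest to that limit inside the IDR list were S6k at 209 and AMPKalpha at 210.2, ranks 5162 and 5135 of 7137.

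**Figure D2:**
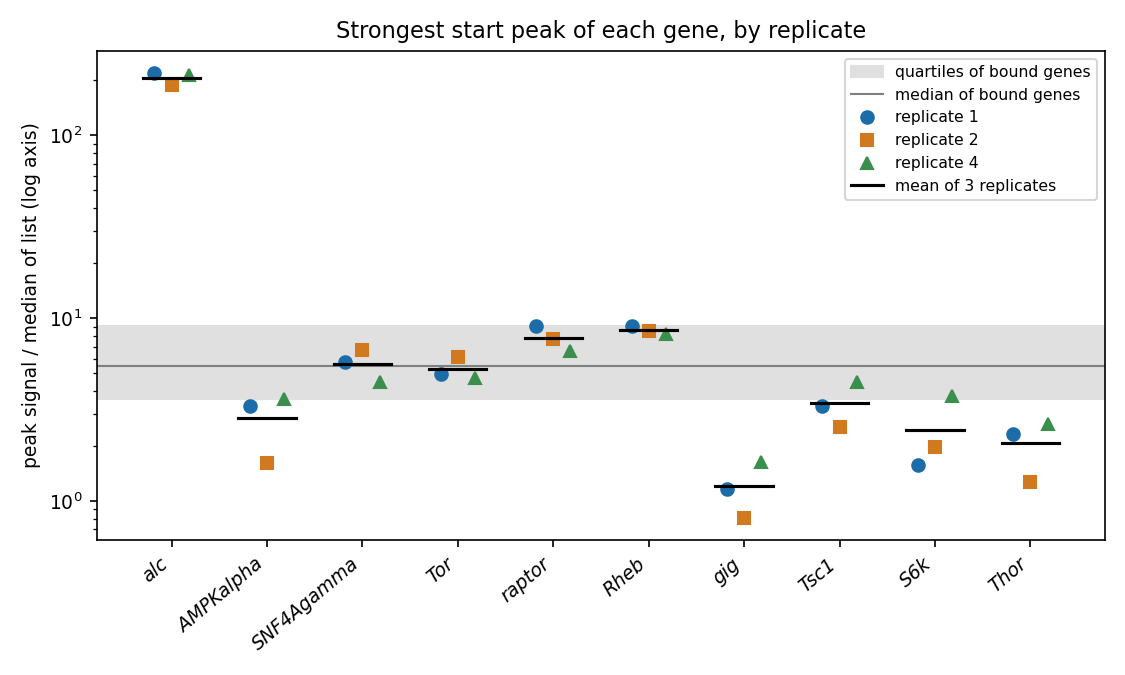
Relative signal (strongest summit within 500 bp of a TSS divided by the list median, log axis) of the 10 genes in replicates 1, 2 and 4, with bars for the mean and a grey band for the quartiles of bound genes (3.63 to 9.08). alc stands at 188 to 219, and AMPKalpha, Tsc1, S6k, Thor and gig have means under the band.

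In the order of means, alc was followed by Rheb, raptor, SNF4Agamma, Tor, Tsc1, AMPKalpha, S6k, Thor and gig. The mean of alc was 24.2 times that of Rheb, and of the pooled signal summed over the strongest summits of the 10 genes, 84.1% was at alc. Since the set was chosen for the strong alc peak, this gap is a description and was not tested. Only 2 neighbours in this order had replicate values that did not overlap, alc with Rheb and Tor with Tsc1. The gap of Tor to Tsc1 rested on the replicate 2 summit of Tor at -258 bp and was lost with a 250 bp window. Within each replicate, Rheb was also above raptor, raptor above SNF4Agamma and Thor above gig, in 3 of 3. The order of SNF4Agamma and Tor, of Tsc1 and AMPKalpha, of AMPKalpha and S6k, and of S6k and Thor was not the same in every replicate. The 8 genes with an IDR summit had a median relative signal of 5.46, and the 7 without alc 5.29, against 5.50 for all bound genes. Of those 7, Tsc1, AMPKalpha and S6k had means under the lower quartile of bound genes. The median of all 10 genes, gig and Thor included, was 4.36.

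In all 3 replicates alc, Rheb and raptor were the strongest, in that order, and gig the weakest. Replicate 4 was highest for AMPKalpha, gig, Tsc1, S6k and Thor and lowest for SNF4Agamma, Tor, raptor and Rheb. The 5 genes with the lowest means were thus at their highest in replicate 4, and the 4 genes next to alc at their lowest. Replicate 2 was lowest for alc, AMPKalpha, gig, Tsc1 and Thor. The coefficient of variation had a median of 24.1% over the 10 genes, and 16.9% over bound genes with quartiles of 10.4% and 25.2%. The part of depth in this spread was not tested.

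In the pooled list the strongest summits of the bound members lay upstream of their starts, as at most bound genes. All 8 lay upstream, beside 89.6% of the 5941 bound genes, and 5 lay within 100 bp of the TSS, beside 52.7%. Those of SNF4Agamma, Rheb and Tor lay further out, at -167, -177 and -258 bp. In single replicates some lay downstream: Tsc1 at +11 and +13 bp in replicates 1 and 2, and S6k at +53 bp in replicate 2. The strongest summits of Tor, Rheb, Tsc1 and S6k lay within 500 bp of the start of another protein-coding gene, 4 of 8, beside 58.9% of bound genes. The peak of alc was wider than 500 bp, as were 6.87% of the strongest peaks of bound genes. Those of raptor and Rheb were narrower, as were 33.6%. In the IDR list 70.2% of peaks were exactly 500 bp wide.

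**Figure D3:**
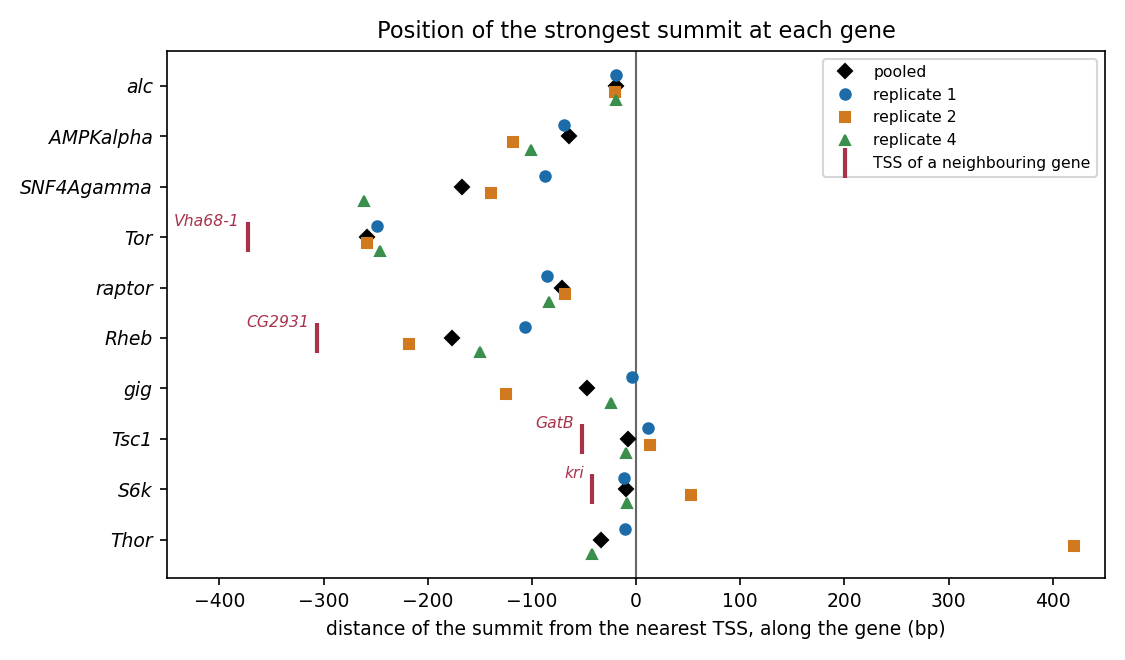
Distance (bp, along the gene) of the strongest summit from its nearest TSS for the 10 genes in the pooled list (diamonds) and replicates 1, 2 and 4, with red ticks for the starts of neighbouring protein-coding genes. The 4 alc points coincide at -19 to -20 bp, the Tor summits lie nearer to Vha68-1, and replicate 2 of Thor lies at +420 bp.

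The promoter peaks next to alc in the pooled order, 2 above and 2 below, were at no gene of the pathway list. Just above alc stood CG1354 at 209 ± 41.8 and the start shared by RpL41 and NaCP60E at 208 ± 32.0 (SD, n = 3). Just below stood CG34250 at 208 ± 15.3 and the start shared by Dph4, RpL13A and Spec2 at 205 ± 11.6 (SD, n = 3). Their means differed from that of alc by 1.46, 1.29, 0.876 and -2.36 in the same order, and all 4 overlapped it. At the edge of the 25 strongest promoter peaks, Sry-delta at place 25 had a pooled signal of 14060, and the start of aqz and lncRNA:CR43130 at place 26 had 13970. Their relative signals in the replicates, with means of 188 ± 19.6 and 183 ± 37.5 (SD, n = 3), overlapped alc too. Among the promoter summits of each replicate, alc ranked 19, 20 and 17 in replicates 1, 2 and 4, inside the 25 strongest each time. The set was chosen on this rank in the first place.

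Of the longer words, alc held GCAACNCT, and AMPKalpha and raptor held TATCGATA. Within 100 bp of the pooled summit, alc was the 1 member of 10 with GCAACNCT, with the match centred 31 bp from the summit. Among the 25 strongest IDR promoter summits 56.0% held it, against 8.77% of all 5166 IDR promoter summits and 5.04% of windows at the most upstream start of every coding gene. GCAACNCT was searched because it had been seen in earlier results of these data, so these shares are a description and were not tested. TATCGATA was found at AMPKalpha and raptor, 2 of 10, beside 16.3% of IDR promoter summits. It was found at 1.46% of the pooled promoter summits outside the IDR list. Among the 50 other pathway genes, GCAACNCT lay at the strong peaks of REPTOR and eIF4E1 and also at the weaker ones of chico, par-1 and REPTOR-BP. None of the 7 words searched lay at Sik3, the strongest of those peaks.

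The other words searched included CGATA, which is part of TATCGATA and lay at alc, AMPKalpha, Tor, raptor, Tsc1 and Thor, 6 of 10, beside 53.9% of IDR promoter summits. The E-box CAGCTG lay at alc, AMPKalpha, gig and Tsc1, 4 of 10, beside 15.8%. TATAAA lay at 5 of 10, beside 32.0%. Within 50 bp of the summit the E-box lay at 2 members and TATAAA at 0. The word GAGAG lay at alc and AMPKalpha, beside 16.6%. None of the 10 held GGTCACAC, found at 9.79%. These shares are of IDR promoter summits, while gig and Thor are outside the IDR list. At pooled promoter summits outside it, CGATA lay at 26.2%, CAGCTG at 11.5%, TATAAA at 25.3%, GAGAG at 28.5% and GGTCACAC at 3.58%. Apart from GGTCACAC, each of these words lay at both alc and AMPKalpha, and CGATA also lay at raptor. Both strands were searched, and no factor's binding was measured at these words.

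Around the 10 genes, 36 of 50 other AMPK and TOR pathway genes had an IDR summit at a start, or 72.0%, beside 42.6% of all protein-coding genes. All 50 had a pooled summit, beside 60.4% of all protein-coding genes. The median relative signal of the 36 was 5.47, against 5.50 for all bound genes. The list was written with earlier results of these data known, so the share was not tested. ACC, listed with the AMPK targets, and Nup44A, listed with GATOR, were both counted through 1 shared summit. For 19 of the 36, the summit also lay within 500 bp of the start of another gene, as at Lkb1, HDAC4, SREBP, RagA-B, Lamtor3, Lamtor4, Wdr24 and Nprl3, beside 62.7% of all bound genes. The Nprl3 summit lay nearer to upSET and that of Wdr24 nearer to IntS11.

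Upstream of AMPK, 2 of 3 genes had an IDR summit, beside 42.6% of all protein-coding genes. They were the activating kinase gene Lkb1 at 3.61 ± 1.91 and its partner Mo25 at 8.46 ± 1.34 (mean relative signal, SD, n = 3). All 5 genes for AMPK targets had an IDR summit. They included HDAC4, a histone deacetylase, at 7.73 ± 2.49, Crtc, a CREB coactivator, at 7.58 ± 2.45, and the lipogenic factor gene SREBP at 5.55 ± 0.760. Among AMPK-related kinases, Sik3 had one of the strongest peaks of the list, with 169, 135 and 182 in replicates 1, 2 and 4 and a mean of 162 ± 24.5 (SD, n = 3). The polarity kinase gene par-1 stood at 3.51 ± 0.892, and Sik2 was outside the IDR list. So 1 kinase of this family had a peak that ranked 42 in the pooled list, and another had none in the IDR list.

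Downstream of TOR, 5 of 9 genes (55.6%) had an IDR summit, beside 42.6% of all protein-coding genes. Of these 5, 3 were far above the bound-gene median. REPTOR, a transcription factor that TORC1 keeps inactive, had a relative signal of 130, 117 and 148 in replicates 1, 2 and 4, a mean of 132 ± 15.5 (SD, n = 3). The cap-binding protein gene eIF4E1, whose product Thor represses, had 91.4, 78.1 and 81.0, a mean of 83.5 ± 6.97 (SD, n = 3). The autophagy gene Atg13 had 33.9, 40.2 and 19.9, a mean of 31.3 ± 10.4 (SD, n = 3). The values of eIF4E1 in all replicates were above those of Thor. REPTOR-BP, the partner of REPTOR, and Mitf, Atg1 and Myc were outside the IDR list.

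In the nutrient-sensing branch, 5 of 8 Rag and Ragulator genes and 6 of 8 GATOR genes had an IDR summit, beside 42.6% of all protein-coding genes. Wdr59, a GATOR subunit gene, stood at 12.1 ± 1.15, Wdr24 at 7.84 ± 1.17 and Nprl3 at 5.45 ± 0.382 (mean relative signal, SD, n = 3). Lamtor3 stood at 10.1 ± 4.20, Lamtor4 at 5.50 ± 0.664 and the GTPase gene RagA-B at 5.33 ± 1.77. Wdr59 and Lamtor3 had higher means than Rheb, and the other 4 lay between Tor and Rheb.

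In the insulin branch 7 of 8 genes had an IDR summit, beside 42.6% of all protein-coding genes. Among the 7 were Pi3K21B at 8.54 ± 0.988 and Akt at 7.18 ± 2.85 (mean relative signal, SD, n = 3). Of the stress inputs to TOR, 2 of 3 had an IDR summit, Sesn at 9.12 ± 2.42 and chrb at 2.72 ± 1.04, with summits at -274 and +283 bp. Neither counted with a 250 bp window or when the peak had to cover a TSS. Of the 3 annotated TOR complex partners, Sin1 stood at 4.11 ± 0.353 and Lst8 at 2.66 ± 0.313, while rictor was outside the IDR list. In these groups no gene reached the level of alc, Sik3, REPTOR or eIF4E1.

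**Figure D4:**
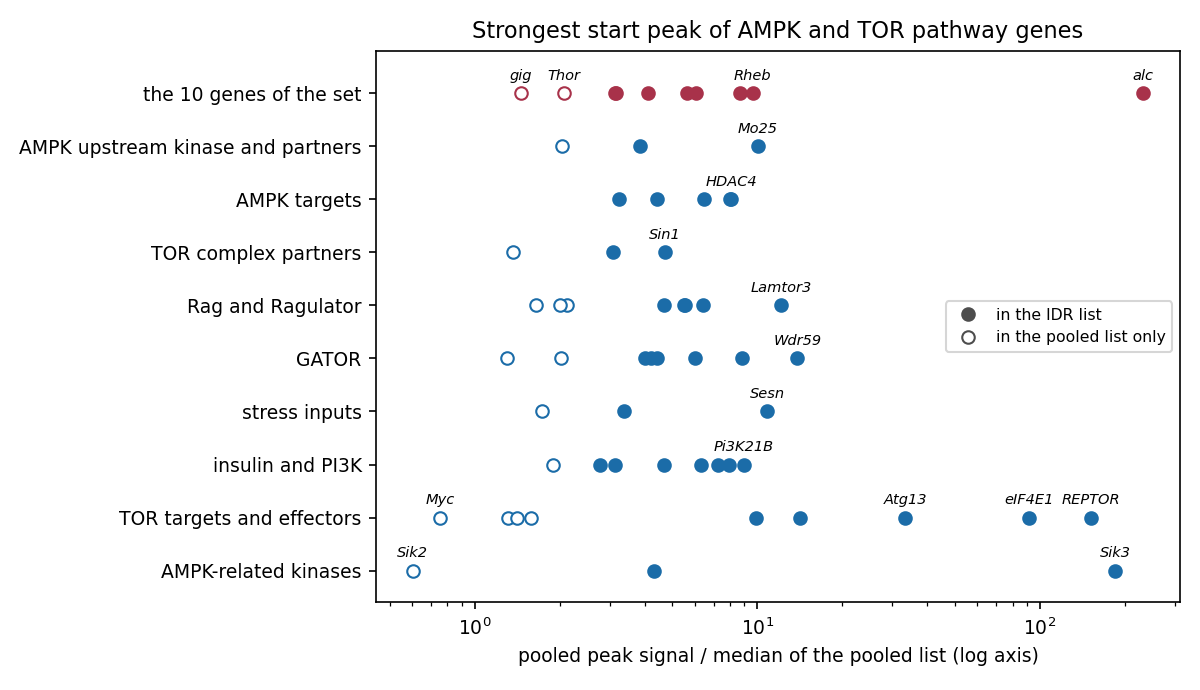
Pooled signal divided by the median of the pooled list (log axis) for the strongest start peak of the 10 genes and of 50 other pathway genes, by group; filled points are in the IDR list and open points in the pooled list only. Apart from alc, Sik3, REPTOR, eIF4E1 and Atg13 on the right, the filled points lie between 2.78 (InR) and 14.2 (RpS6).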

How the data were processed

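The authors deposited narrowPeak lists on dm6, per the file headers and descriptions: relaxed lists for replicates 1, 2 and 4 and for pooled replicates, and an IDR list. The signal column of these deposited lists is the caller's enrichment value and was compared only inside 1 list or relative to that list's median. Not given in the sources used here were the aligner, caller, versions, IDR threshold and depth. Starts were taken from Ensembl release 115 and bases from the RefSeq copy of dm6, and coordinates are 1-based. Bound genes are those with an IDR summit no more than 500 bp from a TSS. Motif matches on either strand were counted up to 100 bp from the pooled summit. No test was run: 3 libraries form 1 group, and members, lists and the word GCAACNCT were chosen with earlier results of these data known. Genes named were the 10 members, up to 3 strongest bound genes of each pathway group, genes sharing starts, and peaks next to alc or a threshold; 1 gene so chosen is not reported here. chico, InR, RpS6, ACC, Nup44A and the pathway genes outside the IDR list fall outside this rule and were named after their values were seen. Tor is annotated as mTor, and 50 of 51 listed pathway genes were found. Python 3.11.15 with numpy 2.4.6 was used, and the gene assignment was tested on simulated peaks.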

Additional observations from a re-analysis of the deposited data

How the results depend on the processing

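Of 115 alternative values, 98 were labelled close to the reported one and 17 as moved. A signal or distance was close when it differed by less than 1 SD over the replicates. The margin for counts was wide, so 25 against 36 other pathway genes and 6 against 8 members still passed as close. With the stronger part of the IDR list, split at its median, 5 members were bound, without AMPKalpha, S6k and Tsc1. When peaks had to cover a TSS, 7 were, without Rheb. Keeping only IDR peaks found among the strongest summits of both other replicates when 1 was left out gave 6 to 7 members. S6k was lost whichever replicate was left out, and AMPKalpha without replicate 1 or 4. The same runs gave 31 to 33 of the other pathway genes. The median relative signal of the 10 genes, 4.36, was 1.06 when each replicate was divided by its median over summits near IDR summits, a larger divisor. With a 250 bp window it was 4.03. There the value of Tor was 4.63 instead of 5.29, since its strongest replicate 2 summit, at -258 bp, lay outside that window. Tor in replicate 2 was then 4.18, under Tsc1 in replicate 4 at 4.478, so the ranges of these 2 genes overlapped. The median was 4.24 to 4.48 with 1 replicate left out. The median summit distance of -67.5 bp was -41.5 bp from the most upstream TSS. The count of other pathway genes was 31 with 250 bp, 39 with 1000 bp and 25 with the stronger part of the IDR list. The share of all protein-coding genes was not counted under these settings. The counts of members and pathway genes here therefore cannot be set beside the 42.6% of the 500 bp window. Peak lists cannot show binding below the caller's threshold. No paired analysis was possible because there is 1 group.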
